A study of Homo sapiens with 8 samples.

Results

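The Argonaute genes and the factors that make microRNAs were followed in an Ago2 immunoprecipitation experiment in L1236 cells, a Hodgkin lymphoma cell line with high levels of miR-155. The genes were AGO1 to AGO4 (named EIF2C1 to EIF2C4 on the array), DROSHA (named RNASEN on the array), DGCR8, XPO5, DICER1, TARBP2 and TNRC6A. Every array probe whose transcript accession maps to 1 of these 10 genes was taken, which gave 14 of the 41000 gene probes, and the 10 genes are among 16557 that the probes could be matched to. AGO1, DGCR8, DICER1 and TNRC6A had 2 probes each and the other 6 genes had 1.

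L1236 cells were transduced with the empty pMSCV-PIG vector (EV cells) or with pMSCV-PIG carrying a miR-155 sponge (sponge cells), and the GFP-positive cells of both populations were sorted. A sponge is a transcript with repeated binding sites that competes with cellular mRNAs for 1 microRNA. From each population, total RNA (T) and RNA precipitated with an antibody against Ago2 (IP) were hybridised to 2-colour arrays. There was 1 RNA sample per group (EV T, EV IP, sponge T and sponge IP), labelled once with Cy3 and once with Cy5, so that T and IP of a population shared 2 arrays with the dyes exchanged. Both labellings come from the same RNA, and every SD given here is taken over these 2 measurements and covers labelling and hybridisation only. No test between conditions was therefore possible and no p-value is given. The labels name no separate transductions, and the IgG control precipitation and the miR-155 level itself were not analysed here.

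MicroRNAs are cut from long primary transcripts in the nucleus by the Microprocessor, in which DROSHA is the nuclease and DGCR8 the RNA-binding partner. XPO5 carries the resulting hairpins to the cytoplasm, where DICER1, with TARBP2 bound to it, cuts them to duplexes. An Argonaute protein keeps 1 strand and is guided by it to mRNAs, and a GW182 protein such as TNRC6A links the Argonaute to the enzymes that silence the message. The mRNAs of these genes can themselves be microRNA targets, and IP/T, the ratio of the signal in the Ago2 precipitate to that in total RNA, measures how far each mRNA is represented in the Ago2 fraction relative to the other transcripts.

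The microRNAs below are shown because each bears on this gene group. miR-155-5p is the one the sponge binds. let-7a-5p, miR-103a-3p and miR-107 come from families known to target DICER1 mRNA. miR-3618 and miR-1306-3p lie inside the DGCR8 gene, in whose transcript the Microprocessor is known to cut hairpins. Sequences are the RefSeq mature forms, 5′ to 3′, with the seed (bases 2 to 8), which pairs with targets, in capitals.
hsa-miR-155-5p: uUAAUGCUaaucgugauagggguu
hsa-let-7a-5p: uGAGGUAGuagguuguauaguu
hsa-miR-103a-3p: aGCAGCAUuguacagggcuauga
hsa-miR-107: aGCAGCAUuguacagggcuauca
hsa-miR-3618: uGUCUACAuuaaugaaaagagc
hsa-miR-1306-3p: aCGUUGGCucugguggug

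On GRCh38.p14, miR-155-5p lies at chr21:25573983-25574006 on the plus strand. miR-3618 lies at chr22:20085797-20085818 and miR-1306-3p at chr22:20086112-20086129, both on the plus strand. let-7a-5p is encoded at chr9:94175962-94175983 and chr22:46112752-46112773 on the plus strand and at chr11:122146568-122146589 on the minus strand. miR-103a-3p is encoded at chr20:3917541-3917563 on the plus strand and at chr5:168560904-168560926 on the minus strand, and miR-107 at chr10:89592756-89592778 on the minus strand. miR-103a-3p and miR-107 share their seed, and the other seeds differ from it and from each other. The levels of these microRNAs and the pairing of their seeds with the 10 mRNAs were not measured here.

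The 4 arrays were on 1 slide and were scanned once. Probes were kept if the scanner marked them well above background in 4 or more of the 8 channels and if Cy3 and Cy5 were within 2-fold of each other in every group, which left 22472 probes including all 14. Between 54.1% (sponge T in Cy5) and 65.7% (sponge IP in Cy5) of gene spots were well above background, the other 6 channels lying between 61.0% and 65.6%, and no gene spot was saturated. All 8 Hodgkin lymphoma markers checked, such as TNFRSF8 (CD30), were detected in all 4 T channels, as were 5 of 7 B-cell markers with MS4A1 (CD20) in none of them. The T-cell gene CD3D and the macrophage genes LYZ and CD163 were in none of them either. The T-cell genes CD3E and CD2 were above background in all 4 T channels but failed the dye filter. The other 2 of the 4 monocyte and macrophage markers were above background in all 4 and were kept. The epithelial marker EPCAM and the 1 fibroblast marker with probes, COL1A2, were above background in no channel, whereas the epithelial marker KRT19 was in 2 of 4 T and 4 of 4 IP channels and failed the dye filter. The part of other cell types in the results was not tested. The signal of a channel is given as log2 of its quantile-normalised value, and it is compared between channels for 1 probe but not between probes.

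The IP/T ratio asks which of these mRNAs were over-represented in the Ago2 fraction. TNRC6A and DICER1 were the highest, 9.79-fold for the better detected TNRC6A probe and 6.43-fold and 4.57-fold for the 2 DICER1 probes in EV cells. AGO4 and TARBP2 were 2.63-fold and 2.02-fold higher in IP, whereas DROSHA, XPO5 and AGO1 lay between 1.59-fold and 1.92-fold. AGO2 and AGO3 had ratios of 1.25 and 1.15, and DGCR8 was the 1 gene with a probe lower in IP than in T in both dye orientations and both populations. With IP/T of 2 or more as the limit, as the study used, 6 of 14 probes passed in EV cells against 17.5% of all kept probes, and the same 6 passed in sponge cells, also against 17.5%. They belong to 4 genes (TNRC6A, DICER1, AGO4 and TARBP2). Among the 6 is TNRC6A A_23_P377806, which was above background in no T channel and was kept only through its IP channels. Without it, 5 of 13 passed in either population. No probe reached a T/IP ratio of 2, which 19.0% of kept probes did in EV cells and 17.8% in sponge cells. Over the 14 probes, log2 IP/T had a median of 0.82 (EV) and 0.88 (sponge), and that of all kept probes was -0.16 and -0.13. In the 2 single orientations the median of the 14 was 0.88 and 0.85 in EV and 0.84 and 0.83 in sponge cells. The medians of the averaged values lie outside these, so an SD over the orientations does not measure their spread.

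**Figure D1:**
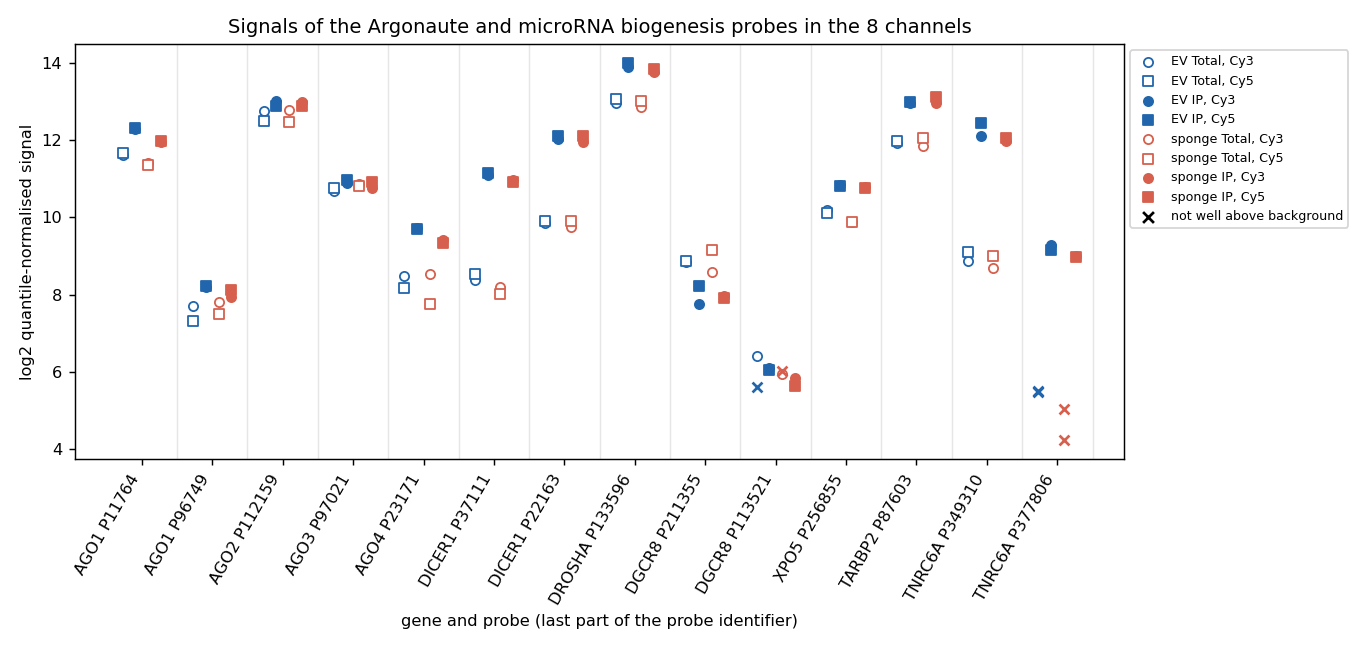
Log2 quantile-normalised signal of each of the 14 probes (x axis, gene and last part of the probe identifier) in the 8 channels. Open symbols are T, filled symbols IP, circles Cy3, squares Cy5, blue EV and red sponge cells, and crosses are signals not well above background. The IP symbols of TNRC6A, DICER1, AGO4 and TARBP2 lie clear above their T symbols, and the T signals of TNRC6A P377806 (4.22 to 5.51) are all crosses.

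Of the Microprocessor genes, DROSHA (A_23_P133596) had log2 signals in EV cells of 12.96 (Cy3) and 13.08 (Cy5) in T and of 13.91 and 14.01 in IP. In sponge cells the same probe gave 12.87 and 13.01 in T and 13.77 and 13.84 in IP. All 4 IP signals were above all 4 T signals, and log2 IP/T was 0.94 ± 0.15 in EV and 0.87 ± 0.15 in sponge cells. This is just under the 2-fold limit, with 1.05 in the EV array that had IP in Cy5 and 0.83 in the other.

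DGCR8 probe A_23_P211355 went the other way, with EV signals of 8.85 and 8.86 in T and 7.76 and 8.23 in IP. In sponge cells T was 8.59 and 9.17 and IP was 7.96 and 7.91. The T signals were all higher than the IP signals, with log2 ratios of IP over T of -0.86 ± 0.33 (EV) and -0.95 ± 0.38 (sponge), which 23.8% and 19.4% of kept probes were at or below. The second DGCR8 probe, A_24_P113521, was dim and well above background in 6 of 8 channels, the exceptions being T in Cy5 of both populations. Its EV signals were 6.42 and 5.59 in T and 6.10 and 6.04 in IP, and log2 IP/T was 0.064 ± 0.62, with opposite signs in the 2 orientations. In sponge cells it was -0.26 ± 0.09, so the 2 DGCR8 probes differed by 0.92 in EV and 0.69 in sponge cells.

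XPO5 (A_23_P256855), the exporter of precursor hairpins, gave 10.19 and 10.12 in T and 10.84 and 10.82 in IP of EV cells. In sponge cells T was 9.89 and 9.87 and IP was 10.80 and 10.76. Log2 IP/T was 0.68 ± 0.06 in EV and 0.90 ± 0.04 in sponge cells. The T and IP signals did not overlap.

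DICER1, the nuclease that cuts precursor hairpins, was separated by over 2 log2 units between fractions at both probes. Probe A_23_P37111 gave 8.37 and 8.52 in T and 11.11 and 11.15 in IP of EV cells, and 8.21 and 8.02 in T and 10.97 and 10.93 in IP of sponge cells. Log2 IP/T was 2.68 ± 0.13 in EV and 2.83 ± 0.16 in sponge cells, and 2.54% and 1.92% of kept probes were at or above these values. Probe A_24_P22163 gave 9.85 and 9.91 in T and 12.03 and 12.12 in IP of EV cells, and 9.74 and 9.90 in T and 11.95 and 12.10 in IP of sponge cells. Its log2 IP/T was 2.19 ± 0.10 and 2.20 ± 0.22, so it was lower than the other probe by 0.49 in EV and 0.63 in sponge cells. Both probes kept a ratio above 2-fold under each normalisation and in each single dye orientation, with the lowest log2 values at 1.45 and 1.16 for A_23_P37111 and 1.63 and 1.53 for A_24_P22163 (EV and sponge).

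TARBP2 (A_23_P87603), the double-stranded RNA-binding partner of DICER1, gave 11.92 and 11.99 in T and 12.96 and 12.98 in IP of EV cells. In sponge cells it gave 11.86 and 12.06 in T and 12.96 and 13.11 in IP. Log2 IP/T was 1.02 ± 0.06 in EV and 1.08 ± 0.25 in sponge cells. The fractions did not overlap, but whether the ratio passed 2-fold depended on the orientation, with 1.06 and 0.97 in EV and 1.25 and 0.90 in sponge cells.

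The 4 Argonaute genes did not lie together. AGO4, AGO1 and AGO3 neighbour each other on chromosome 1, and their proteins bind microRNAs as AGO2 does, but AGO2 is the main slicing enzyme. AGO4 (A_23_P23171) gave 8.48 and 8.16 in T and 9.73 and 9.70 in IP of EV cells, and 8.53 and 7.76 in T and 9.42 and 9.33 in IP of sponge cells. The IP signals were all above the T signals, with log2 IP/T of 1.39 ± 0.25 in EV and 1.24 ± 0.61 in sponge cells. In sponge cells the orientations gave 0.80 (IP in Cy5) and 1.67 (IP in Cy3), and with background correction by normexp the EV value was 0.60 (with quantile) or 0.79 (with loess), which is under 2-fold.

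AGO1 probe A_23_P11764 gave 11.62 and 11.66 in T and 12.29 and 12.33 in IP of EV cells, and 11.42 and 11.35 in T and 11.97 and 11.98 in IP of sponge cells. Its log2 IP/T was 0.67 ± 0.06 and 0.59 ± 0.04. AGO1 probe A_24_P96749, a dimmer probe, gave 7.69 and 7.32 in T and 8.18 and 8.23 in IP of EV cells, and 7.81 and 7.50 in T and 7.93 and 8.13 in IP of sponge cells. Its log2 IP/T was 0.70 ± 0.23 in EV and 0.37 ± 0.08 in sponge cells, so the 2 AGO1 probes differed by 0.037 in EV cells, less than their SD, and by 0.22 in sponge cells.

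The mRNA of AGO2 itself, whose protein was precipitated, was hardly shifted between fractions. Its probe (A_23_P112159) gave 12.76 and 12.51 in T and 13.01 and 12.89 in IP of EV cells, and 12.78 and 12.48 in T and 12.98 and 12.89 in IP of sponge cells. Log2 IP/T was 0.32 ± 0.26 in EV and 0.30 ± 0.28 in sponge cells, and 33.8% and 35.0% of all kept probes were at or above it. AGO3 (A_23_P97021) gave 10.69 and 10.76 in T and 10.90 and 10.96 in IP of EV cells, with log2 IP/T of 0.20 ± 0.09. In sponge cells its T signals of 10.86 and 10.80 overlapped its IP signals of 10.77 and 10.92, and log2 IP/T was 0.015 ± 0.066.

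TNRC6A had the highest ratios of the group. Probe A_23_P349310 gave 8.86 and 9.11 in T and 12.11 and 12.45 in IP of EV cells, and 8.69 and 9.01 in T and 11.98 and 12.06 in IP of sponge cells. Log2 IP/T was 3.29 ± 0.43 in EV and 3.16 ± 0.28 in sponge cells, and 1.19% and 1.27% of kept probes were at or above these values. The lowest values over the alternatives were 2.26 in EV and 2.01 in sponge cells. The second probe, A_23_P377806, was not well above background in any of the 4 T channels, and it passed the filter only through its 4 IP channels. Its ratio therefore rests on T signals that were not detected. With normexp, loess and Aquantile, IP was 1.98-fold over T in EV cells and 1.59-fold in sponge cells. The T signals of this probe were then no lower than the dimmest detected signals, so they were used as they were. Without this probe, 5 of 13 probes had an IP/T of 2 or more in either population. The median log2 IP/T was then 0.70 in EV and 0.87 in sponge cells, and with the probe at 1.98-fold and 1.59-fold it was 0.82 and 0.77. Among the 12 probes that were well above background in all 8 channels, 5 passed, against 15.8% (EV) and 15.6% (sponge) of the 19893 such probes on the array.

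**Figure D2:**
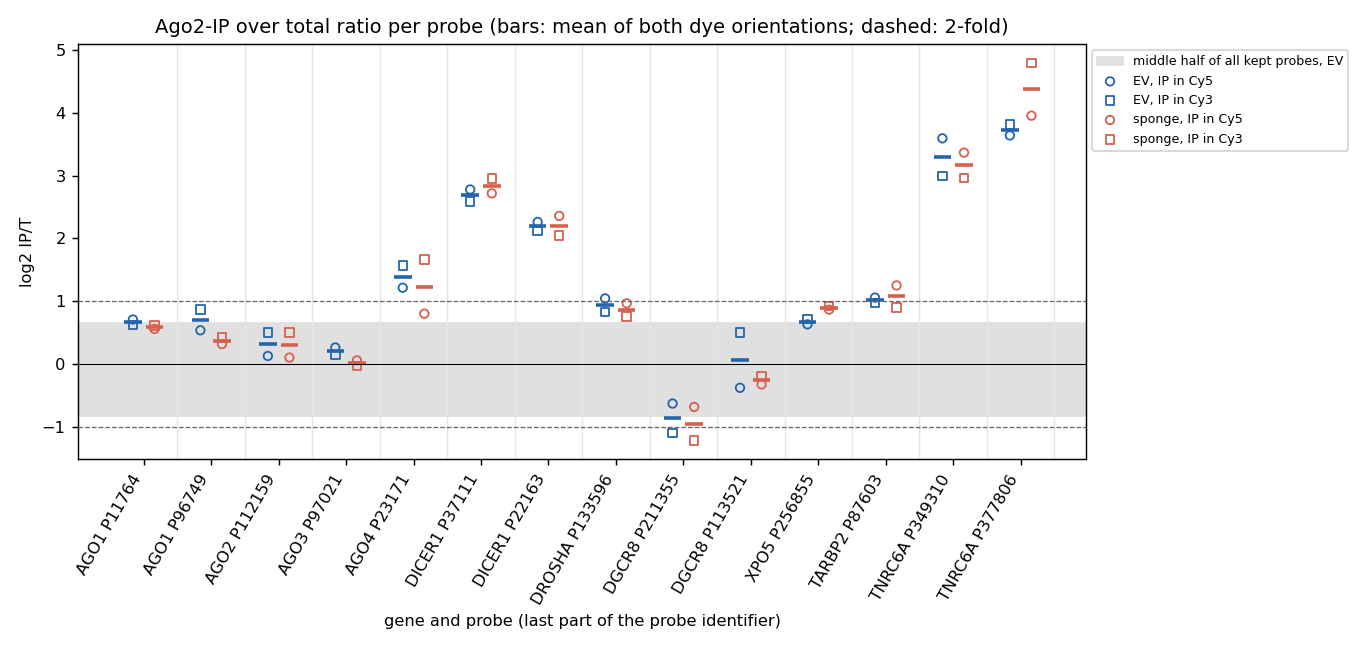
Log2 IP/T of the 14 probes (y axis) in EV (blue) and sponge cells (red). Circles are the array with IP in Cy5, squares the array with IP in Cy3, bars their mean, dashed lines 2-fold, and the grey band the 25th to 75th percentile of all kept probes in EV cells (-0.82 to 0.65). The TNRC6A, DICER1 and AGO4 bars are above the upper dashed line, TARBP2 is on it, and the points of TNRC6A P377806 rest on T signals not well above background.

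Setting the ratios in order, TNRC6A was followed in EV cells by DICER1, AGO4, TARBP2, DROSHA, AGO1 and XPO5 together, AGO2, AGO3 and DGCR8. Neighbours that did not differ by more than the larger of their SDs were TARBP2 and DROSHA, XPO5 and each AGO1 probe, AGO2 and AGO3, and AGO3 and the dim DGCR8 probe. In sponge cells the neighbours within their SD were AGO4 and TARBP2, TARBP2 and XPO5, XPO5 and DROSHA, and AGO1 (A_24_P96749) and AGO2. IP/T was above 1 in both orientations for 12 of 14 probes in EV cells (39.1% of all kept probes) and for 11 in sponge cells (38.9%). AGO3 was the probe that had this in EV but not in sponge cells, and the 2 DGCR8 probes had it in neither.

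The comparison of sponge with EV cells asks whether the sponge went with other levels of these mRNAs. In bulk RNA, fewer cells with a transcript and less transcript per cell cannot be told apart. No probe differed by 2-fold in T, as 0.151% (higher) and 0.258% (lower) of kept probes did by their mean, leaving aside TNRC6A A_23_P377806, whose T signals were not well above background. In T, the median log2 difference (sponge minus EV) over the 14 probes was -0.068 ± 0.065, against -0.016 over all kept probes. The difference was more than the SD over the dyes and lower in sponge cells for 6 probes (27.1% of kept probes), TNRC6A A_23_P377806 among them, and higher for 2 (23.5%).

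XPO5 had a log2 difference in T of -0.27 ± 0.03, with -0.29 in Cy3 and -0.25 in Cy5. AGO1 A_23_P11764 had -0.26 ± 0.08, but the dimmer AGO1 probe had 0.15 ± 0.05, so the 2 probes of this gene disagreed in sign in both dyes. DICER1 A_23_P37111 had -0.33 ± 0.24 and the other DICER1 probe -0.059 ± 0.074. TNRC6A A_23_P349310 had -0.13 ± 0.04, DROSHA -0.077 ± 0.020 and AGO3 0.10 ± 0.08. With normexp, loess and Aquantile the sign turned for DICER1 A_23_P37111 (0.022), DICER1 A_24_P22163 (0.099) and TNRC6A A_23_P349310 (0.088). For XPO5, DROSHA, AGO3 and both AGO1 probes the sign held with normexp (loess or quantile) and when channels were scaled to a percentile. Their differences were more than the SD over the dyes, so single dyes or orientations could not turn the sign. The authors' values are the same signals. AGO2 (-0.0016 ± 0.035), TARBP2 (0.0066 ± 0.098) and both DGCR8 probes (0.020 ± 0.41 and -0.026 ± 0.64) were within their SD. AGO4 had -0.18 ± 0.32, made of 0.046 in Cy3 and -0.41 in Cy5. For AGO4 and DICER1 A_23_P37111 (-0.16 in Cy3 and -0.50 in Cy5) the difference was lower in Cy5. Both DGCR8 probes went the other way, with -0.27 in Cy3 and 0.31 in Cy5 for A_23_P211355 and -0.48 and 0.42 for A_24_P113521. The median of the 14 probes was -0.14 in Cy3 and -0.045 in Cy5. Sponge T in Cy5 was the channel with the fewest spots above background (54.1%), and its part in these values was not tested.

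In the IP fraction, the differences were small and mostly of 1 sign. No probe differed by 2-fold (0.0845% of kept probes were that much higher and 0.0667% lower), but 13 of 14 were lower in sponge IP by their mean, as were 48.9% of all kept probes. The count was 12 of 14 in Cy3 alone (49.2% of kept probes) and 13 of 14 in Cy5 alone (48.6%). By more than the SD over the dyes, 11 probes of 8 genes were lower (31.3% of kept probes) and 0 higher (33.3%). Each of these 11 was also lower with normexp, loess and Aquantile, with normexp and quantile, and with scaling to the 75th percentile. A probe beyond its SD has the same sign in both dyes, so the alternatives with single dyes or orientations could not differ. The authors' values are the same signals, also quantile-normalised. The median over the 14 probes was -0.16 ± 0.03 on the log2 scale, against 0.0060 over all kept probes, of which the middle part from the 25th to the 75th percentile ran from -0.13 to 0.14. With 1 probe per gene, the brighter on average of 2, it was -0.075, inside that middle part. The dimmer probe left out had the lower value for DICER1 and DGCR8 and the higher value for AGO1 and TNRC6A.

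The lowest values in IP were those of the dim DGCR8 probe A_24_P113521 (-0.35 ± 0.11), AGO4 (-0.34 ± 0.04, with -0.31 in Cy3 and -0.37 in Cy5) and AGO1 A_23_P11764 (-0.33 ± 0.02, with -0.32 and -0.35). Over the 8 alternatives the DGCR8 probe ran from -0.42 to -0.034, AGO4 from -0.37 to -0.15 and AGO1 A_23_P11764 from -0.35 to -0.30. TNRC6A had -0.26 ± 0.19 at A_23_P349310 and -0.22 ± 0.07 at A_23_P377806, where all 4 IP signals were detected. DICER1 had -0.18 ± 0.06 at A_23_P37111 and -0.048 ± 0.046 at A_24_P22163, and AGO1 A_24_P96749 had -0.18 ± 0.11. DROSHA had -0.15 ± 0.03, AGO3 -0.085 ± 0.063 and XPO5 -0.048 ± 0.016. The 3 probes within their SD were AGO2 (-0.015 ± 0.018), TARBP2 (0.068 ± 0.089) and DGCR8 A_23_P211355 (-0.065 ± 0.36, with 0.19 in Cy3 and -0.32 in Cy5). These differences are relative to the other transcripts, since normalisation gives every channel the same distribution. With 1 RNA sample per group, they cannot be told apart from differences between any 2 precipitations.

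**Figure D3:**
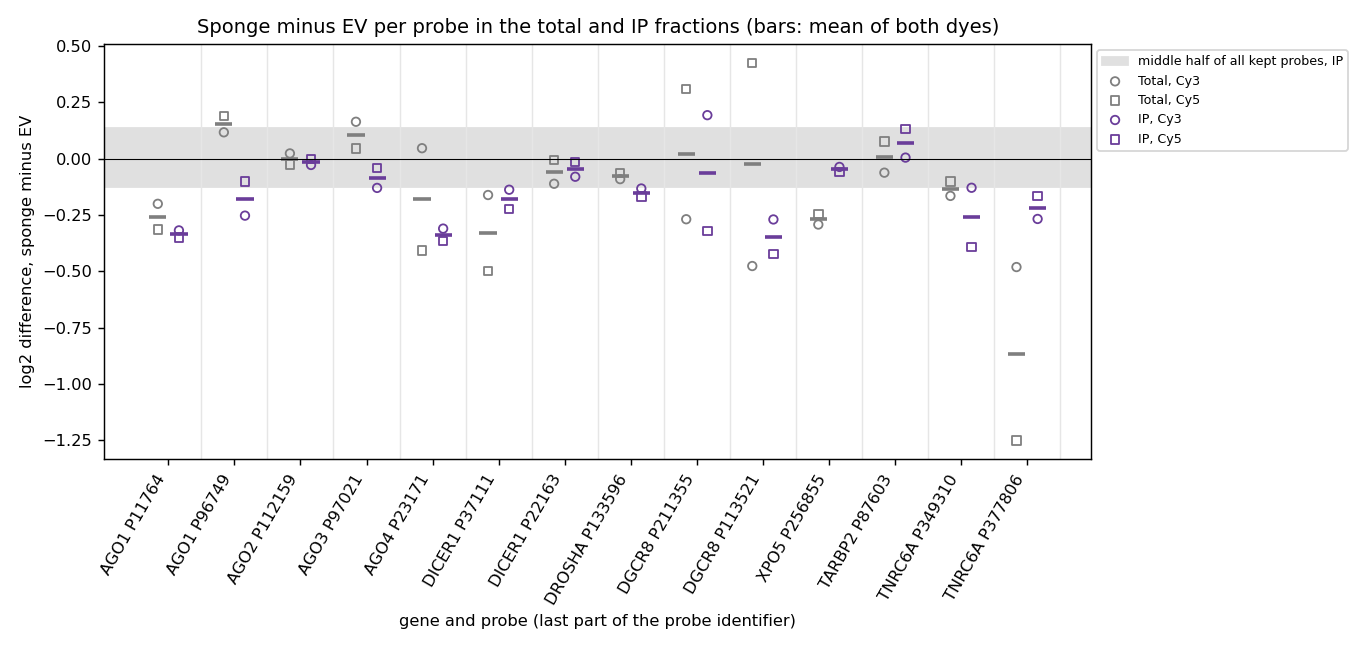
Log2 difference, sponge minus EV, of the 14 probes in T (grey) and IP (purple), with circles for Cy3, squares for Cy5 and bars for their mean. The grey band is the 25th to 75th percentile of all kept probes in IP (-0.13 to 0.14). Both IP points of AGO1 P11764 and AGO4 lie between -0.37 and -0.31, the AGO2 bars lie close to 0, and the T points of TNRC6A P377806 are from signals not well above background.

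The change in IP/T (sponge minus EV) was below 2-fold for every probe, which 0.174% (higher) and 0.138% (lower) of kept probes exceeded. Its median over the 14 probes was -0.076, against 0.017 over all kept probes, and -0.057 and -0.048 in the single orientations with IP in Cy5 and in Cy3. More than the SD, 4 probes were lower (23.5% of kept probes) and 2 higher (29.6%), the second of these being TNRC6A A_23_P377806, for which the change has no measured T. XPO5 was the other higher one, with 0.22 ± 0.02, where the T signal was lower in sponge cells and the IP signal nearly level. The lower ones were AGO1 A_24_P96749 (-0.33 ± 0.16), AGO3 (-0.19 ± 0.02), DGCR8 A_23_P211355 (-0.085 ± 0.045) and DROSHA (-0.074 ± 0.0058). DICER1 (0.15 ± 0.30 and 0.011 ± 0.12), TNRC6A A_23_P349310 (-0.13 ± 0.14), AGO4 (-0.16 ± 0.36), TARBP2 (0.061 ± 0.19), AGO2 (-0.014 ± 0.016), AGO1 A_23_P11764 (-0.077 ± 0.10) and DGCR8 A_24_P113521 (-0.32 ± 0.53) were within their SD.

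Around these genes, 54 further genes of the pathway were listed by role, of which 46 had a kept probe. Where a gene had several kept probes, the brightest on average stood for it. At IP/T of 2 or more there were 4 of 46 in EV and 3 in sponge cells, beside 17.5% of kept probes, and 5 of 46 had T/IP of 2 or more in EV cells (19.0%) and 5 in sponge cells (17.8%). The median log2 IP/T of the 46 was 0.030 ± 0.064 in EV and 0.036 ± 0.15 in sponge cells, whereas the 10 genes above had 0.81 and 0.88 when taken in the same way. None of the 46 differed by 2-fold between sponge and EV cells in T or IP. In IP, 19 were lower by more than the SD (31.3% of all kept probes) and 15 higher (33.3%), and in T 16 were lower (27.1%) and 11 higher (23.5%).

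Among 9 Microprocessor cofactors and cap-binding partners, HNRNPA1, which binds some primary microRNAs, was the highest in EV cells at a log2 IP/T of 1.90 ± 0.12, with 4 probes between 1.33 and 1.93. This gene has many near-identical copies, so its probes may not be specific. NCBP1, a nuclear cap-binding subunit, was the lowest at -0.98 ± 0.18. The 6 export, import and Dicer partners ran from ADAR (-0.50 ± 0.20) to ADARB1 (0.65 ± 0.05), both RNA-editing enzymes, and PRKRA, the other double-stranded RNA-binding partner of DICER1, had -0.41 ± 0.08 where TARBP2 had 1.02 ± 0.06. Among 10 chaperones that help load Argonaute, HSPA8 was the highest (1.52 ± 0.30) and FKBP4 the lowest (-1.02 ± 0.29).

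Of the GW182 proteins, TNRC6B, a paralog of TNRC6A, had 3 kept probes, all higher in IP in EV cells, with log2 IP/T of 0.74 ± 0.24, 1.25 ± 0.0048 and 1.52 ± 0.19. Each was lower than the 3.29 ± 0.43 of TNRC6A A_23_P349310. The TNRC6C probe was not well above background in any T channel and was not kept. Among the 11 kept genes for GW182 proteins and Argonaute-associated factors, LIMD1, which binds Argonaute and GW182 proteins, was the highest (1.72 ± 0.33 in EV and 1.07 ± 0.32 in sponge cells), with 2 of its 4 T channels above background. FXR2, an FMR1 relative, was the lowest at -1.33 ± 0.09. Among 9 tailing, trimming and turnover genes, PNPT1 was the highest (1.01 ± 0.14) and ZSWIM8, which takes part in target-directed microRNA decay, the lowest (-1.61 ± 0.39). LIN28A and LIN28B, which block let-7 processing, were not well above background in any channel. Of the PIWI genes, relatives of the Argonautes active mainly in the germline, only PIWIL4 was kept (-1.05 ± 0.46). PIWIL2 was above background in 3 of 4 T and 4 of 4 IP channels but failed the dye filter. PIWIL3 was above background in 1 IP channel and no T channel, and PIWIL1 in no channel.

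**Figure D4:**
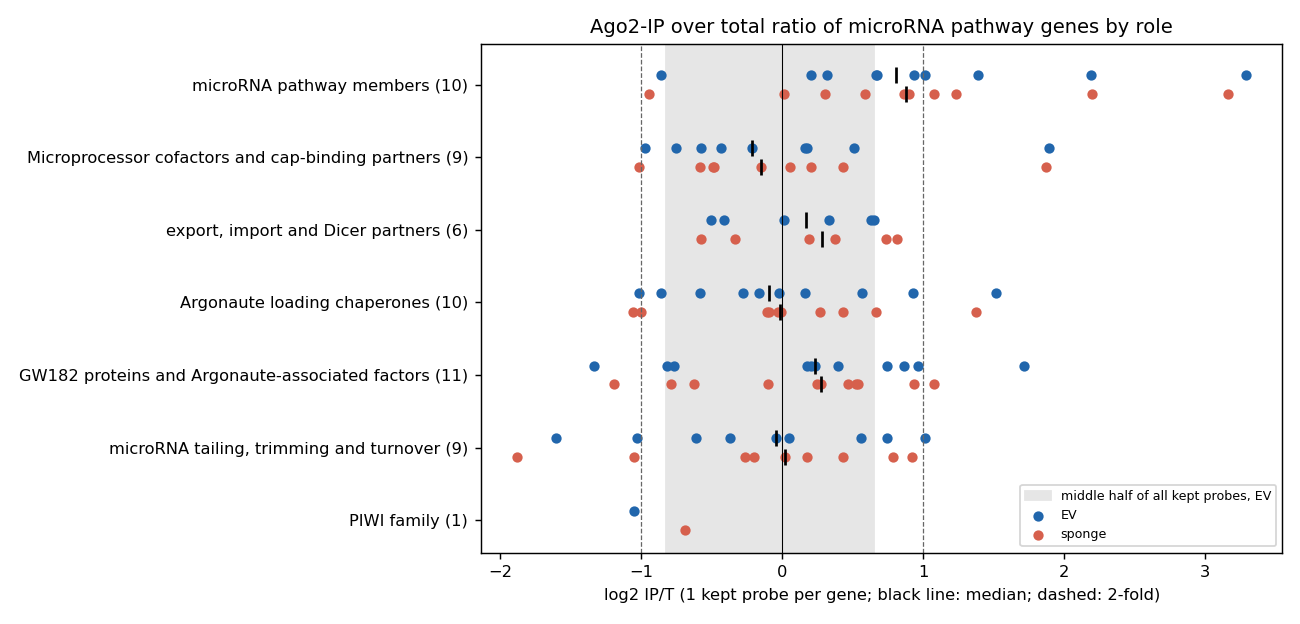
Log2 IP/T (x axis) of the 10 genes and of the kept genes of the further pathway lists (rows, number of genes in brackets), 1 kept probe per gene, in EV (blue) and sponge cells (red). Black ticks are medians, dashed lines 2-fold, and the grey band is the 25th to 75th percentile of all kept probes in EV cells. The 10 genes have medians of 0.81 and 0.88, whereas the medians of the further lists with more than 1 gene lie between -0.21 and 0.28.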

How the data were processed

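Total and Ago2-precipitated RNA of EV and sponge L1236 cells was measured on 4 2-colour Agilent human arrays, each deposited under both of its samples (8 files). Per the file headers, the intensity values (processed signals, after background subtraction and dye normalisation) came from Feature Extraction 10.7.3.1, whereas the submitters' processing notes name 10.5.1.1. The deposited value table holds log2 values that the authors quantile-normalised, with no change of direction or centring (column medians 9.85 to 9.90). It holds 22282 probes, including all 14, and its values had a Spearman correlation of 1 with the scanner signals. It served as an alternative. The scanner log ratios and their p-values were not used.

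Processed signals of the 41000 gene probes were averaged over spots, quantile-normalised over the 8 channels and log2-transformed (R 4.3.3, limma 3.58.1, Python 3.11.15). Of 25830 probes well above background in at least 4 channels, 3358 with dyes over 2-fold apart in any group were left out. Cy3 and Cy5 were then averaged. Called means a mean of 2-fold or more. Normexp (offset 50) started from median spot signals, since the files used here hold no mean signals. For TNRC6A A_23_P377806, the mean IP signal was also set against T after normexp, loess and Aquantile. The lowest detected signal of each T array was to replace a lower T signal, but no T signal of this probe was lower. The SD of a list's median is that of the medians of the 2 labellings, and the median of the averaged values can lie outside both. Genes were named through RefSeq accessions (GRCh38.p14), which matched 15628 kept probes (69.5%), and no coordinates were converted from the array's older build. The calculation was tested on simulated data. All probes of the 10 genes are given. Of each further list, the genes highest and lowest in IP/T in EV cells are named, and any past 2-fold between populations. PRKRA, TNRC6B, TNRC6C, LIN28A, LIN28B, PIWIL1, PIWIL2 and PIWIL3 were added after their values were seen. The genes and lists were chosen with earlier results of these data known. Array number limits the precision.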

Additional observations from a re-analysis of the deposited data

How the results depend on the processing

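All 14 probes were kept in the main setting, and between 10 and 14 under the alternatives. No value of the 14 probes that was called turned its sign. Over the 8 alternatives that change a probe's value, 464 values of single probes moved by no more than their SD and 96 by more. Part of the 464 was fixed in advance, since each of 2 measurements always lies within their SD of their mean. The count of probes with IP/T of 2 or more, 6 in both populations, was 3 in EV cells with normexp and quantile, and in sponge cells 3 with normexp and quantile and 3 with normexp, loess and Aquantile. Both settings change the input signal, the background correction and the offset together. Those normalisations also moved the median log2 IP/T of all kept probes in EV cells from -0.16 to -0.034 (normexp and quantile) and 0.0082 (normexp, loess and Aquantile). The count with T/IP of 2 or more was 1, not 0, in EV and in sponge cells in the arrays with IP in Cy3, and ran from 0 to 1 in both when 1 dye was left out.

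The median log2 IP/T in EV cells was 0.71 with normexp, loess and Aquantile, 0.56 with normexp and quantile, 0.70 with the dye filter at 1.5-fold, 0.88 in the arrays with IP in Cy5, 0.85 in those with IP in Cy3, and 0.81 to 0.92 with 1 dye left out. In sponge cells these were 0.57, 0.54, 0.87, 0.84, 0.83 and 0.86 to 0.90, and 0.86 when channels were scaled to their 75th percentile. For IP, the median log2 difference was -0.13 with normexp, loess and Aquantile, -0.063 with normexp and quantile, -0.12 with detection in all 8 channels, -0.085 with the dye filter at 1.5-fold, -0.075 with 1 probe per gene, -0.13 in the arrays with IP in Cy3 and -0.17 to -0.13 with 1 dye left out. In T it was 0.032 with normexp, loess and Aquantile, where the sign turned, -0.14 in the arrays with IP in Cy5, and -0.14 to -0.045 with 1 dye left out. The cause of these moves was not tested. No paired analysis was possible because each group holds 1 RNA sample and its 2 labels are dyes. The number of arrays and the dim T signals of TNRC6A, DGCR8 and AGO4 limit the precision.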
